A study of Mus musculus with 30 samples.

Results

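The genes described here make ribosomes. They were taken from the liver table by symbol: members of the Utp, Nop, Rrp, Nol, Noc-like and Gnl series, RNA polymerase I subunits Polr1a to Polr1e, Imp3 and Imp4, and 10 further factors (Bop1, Pes1, Wdr12, Fbl, Ncl, Npm1, Dkc1, Rrs1, Nip7 and Tsr1). The rule found 61 of the 29117 genes in the table and used no measured value. Of these, 58 reached 1 FPKM (fragments scaled by transcript length and library size) in at least 3 libraries and were tested among 13589 genes. Nol3, Nol4 and Nol4l never reached 1 FPKM and were not tested. Nol3, known as an inhibitor of cell death, was without a value in most libraries.

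Livers came from C57BL/6J mice, an inbred laboratory strain, aged 10 weeks and fasted for 12 to 16 h, that received human insulin at 0.7 U/kg by intraperitoneal injection (15 libraries) or the vehicle, phosphate-buffered saline (PBS, 15 libraries). Poly(A) RNA of the left lobe was sequenced at 5 sampling points within 4 h, with 3 libraries per treatment and point, which makes 10 groups. The labels number the points from 1 to 5 and give no minutes, so neither their order in time nor a baseline is assumed, and no uninjected animals are among the groups. The labels do not give sex. At every point the question was which of these transcripts differed between insulin-injected and PBS-injected livers.

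Ribosomal RNA is transcribed in the nucleolus by RNA polymerase I as a long precursor. The small-subunit processome, built around the U3 small nucleolar RNA, folds and cleaves the part that becomes the 40S subunit, while another set of factors assembles the 60S subunit. Small nucleolar ribonucleoproteins (snoRNPs) modify nucleotides of the precursor. In the liver, feeding and insulin are known to act on ribosome production through mTORC1, and Myc is a known activator of many of these genes, through the E-box CACGTG among other sites.

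Promoters of the members were searched for short motifs, none of which was present in all of them. RefSeq promoters on GRCm38.p6, from 250 bases before to 50 after a gene's start, were matched for 47 of the 61 members. Those of 4 members are printed because the results turn on them or because they hold the E-box: Gnl3, the member with the clearest rise (chr14:31019082-31019381, minus strand), Nop2 (chr6:125131633-125131932, plus strand), Utp18, whose levels ran most like those of Gnl3 among the members with an E-box (chr11:93885717-93886016, minus strand), and Rrp7a, which was lower in insulin livers (chr15:83122752-83123051, minus strand). Sequences run 5′ to 3′ along the gene, and capitals mark CACGTG.
Gnl3: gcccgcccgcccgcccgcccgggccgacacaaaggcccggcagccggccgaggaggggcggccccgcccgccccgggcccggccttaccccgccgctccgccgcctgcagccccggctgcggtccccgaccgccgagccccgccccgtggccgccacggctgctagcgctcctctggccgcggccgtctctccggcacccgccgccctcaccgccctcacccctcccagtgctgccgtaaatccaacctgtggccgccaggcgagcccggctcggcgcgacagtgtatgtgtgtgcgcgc
Nop2: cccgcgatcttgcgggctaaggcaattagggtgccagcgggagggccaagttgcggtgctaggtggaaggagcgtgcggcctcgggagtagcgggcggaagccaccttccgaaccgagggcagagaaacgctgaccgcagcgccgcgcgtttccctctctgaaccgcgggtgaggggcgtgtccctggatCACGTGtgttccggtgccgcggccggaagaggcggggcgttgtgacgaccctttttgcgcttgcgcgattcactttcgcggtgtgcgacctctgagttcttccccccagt
Utp18: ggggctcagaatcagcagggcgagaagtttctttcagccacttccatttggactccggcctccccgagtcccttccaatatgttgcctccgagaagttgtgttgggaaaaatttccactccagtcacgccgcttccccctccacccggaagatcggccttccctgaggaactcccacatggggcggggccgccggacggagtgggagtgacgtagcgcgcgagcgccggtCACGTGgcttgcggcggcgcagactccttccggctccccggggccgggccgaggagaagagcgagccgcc
Rrp7a: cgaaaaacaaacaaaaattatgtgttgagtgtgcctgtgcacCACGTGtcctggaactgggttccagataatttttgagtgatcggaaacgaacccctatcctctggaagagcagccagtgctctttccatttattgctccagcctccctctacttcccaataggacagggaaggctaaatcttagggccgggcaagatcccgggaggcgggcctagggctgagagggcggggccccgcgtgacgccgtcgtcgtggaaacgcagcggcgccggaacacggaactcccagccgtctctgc

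CACGTG, which reads the same on both strands, was present in any listed promoter of 11 of 47 members (23.4%), against 8.09% of the 27025 genes in the promoter table. The 11 were Imp4, Nol11, Nop2, Pes1, Rrp7a, Tsr1, Utp14b, Utp18, Utp20, Utp25 and Utp4. In Nop2 the E-box lay 60 bases before the start, in Utp18 20 bases before it and in Rrp7a 208 bases before it, and the Gnl3 window held none. The ETS-type heptamer CCGGAAG was present in 31.9% of the members and in 9.93% of all genes, and the GC box GGGCGG, which can share bases with other GC-rich motifs, in 74.5% and 38.2%. CCAAT was present in 31.9% of the members and 41.1% of all genes, and the cyclic AMP element TGACGTCA, a palindrome, in 2.13% and 2.03%. All motifs were searched on both strands. The genes compared are all those in the promoter table, tested or not, and were not matched for GC content or level. Whether Myc acts at these sites was not tested.

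Several properties of the libraries moved with treatment or with a series of libraries, and they touch every result below. Lanes 1 and 2 held only insulin libraries and lanes 3, 4 and 5 only PBS libraries, which means that treatment and lane cannot be told apart, and no within-lane comparison was possible. PBS replicates 1, 2 and 3 were lanes 3, 4 and 5 at every point, so leaving out a PBS series left out a lane. The ribosomal RNA rows of the table summed to 70817 to 75815 FPKM in the insulin replicate 1 libraries at all 5 points, against 5853 to 8603 FPKM in the other insulin libraries and 3972 to 8972 FPKM in the PBS libraries. The median gene was lower in insulin livers by 0.06 to 0.17 log2 units at the 5 points. The slope of each library's deviation from the gene means against transcript GC content was −0.17 to −0.01 log2 units per 10% of GC in the 15 insulin libraries. It was −0.15 to 0.26 in the 15 PBS libraries, of which only 2 (replicate 1 at points 1 and 2) lay below 0. Counts are therefore given on the FPKM as deposited, after median-ratio scaling (each library divided by its median ratio to the gene means), after an adjustment of each library for transcript GC content, which was chosen after seeing the data, and without the insulin replicate 1 series.

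Defining markers of liver were present: 10 hepatocyte genes summed to 43240 to 61044 FPKM in insulin livers and 49965 to 62357 FPKM in PBS livers. Kupffer cell and macrophage markers summed to 56.1 to 115 FPKM in insulin livers, against 76.6 to 209 FPKM in PBS livers. The 209 FPKM came from PBS replicate 1 at point 4, where PBS replicates 2 and 3 held 125 and 99.8 FPKM. On the deposited values 4 of 8 of these markers were called lower on average, as were 37.6% of all genes. Of the sinusoidal endothelial markers, which summed to 47.9 to 75.3 FPKM in insulin livers and 67.2 to 90.1 FPKM in PBS livers, 6 of 7 were called lower. Of the stellate cell markers 4 of 7 were lower and none higher, and of the hepatocyte markers 4 of 10 were lower and 1 higher. After GC adjustment, where 11.7% of all genes were lower, the counts lower were 1 of 8 Kupffer, 2 of 7 endothelial, 1 of 7 stellate and 1 of 10 hepatocyte markers, and 2 of 10 hepatocyte markers were higher. Lymphocyte and neutrophil markers summed to 0.331 to 6.56 FPKM in insulin livers and 0.889 to 9.32 FPKM in PBS livers, with Cd3e, Cd79a, Ms4a1, Nkg7 and Retnlg under 1 FPKM in all libraries. Of 8 proliferation genes only Pcna was tested, and it was called higher on average under median-ratio scaling and not on the deposited or GC-adjusted values, and the other 7 stayed under 1 FPKM in all libraries. The part of other cell types in the differences was not tested, and in bulk tissue fewer cells of a type and less RNA per cell cannot be told apart.

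**Figure D1:**
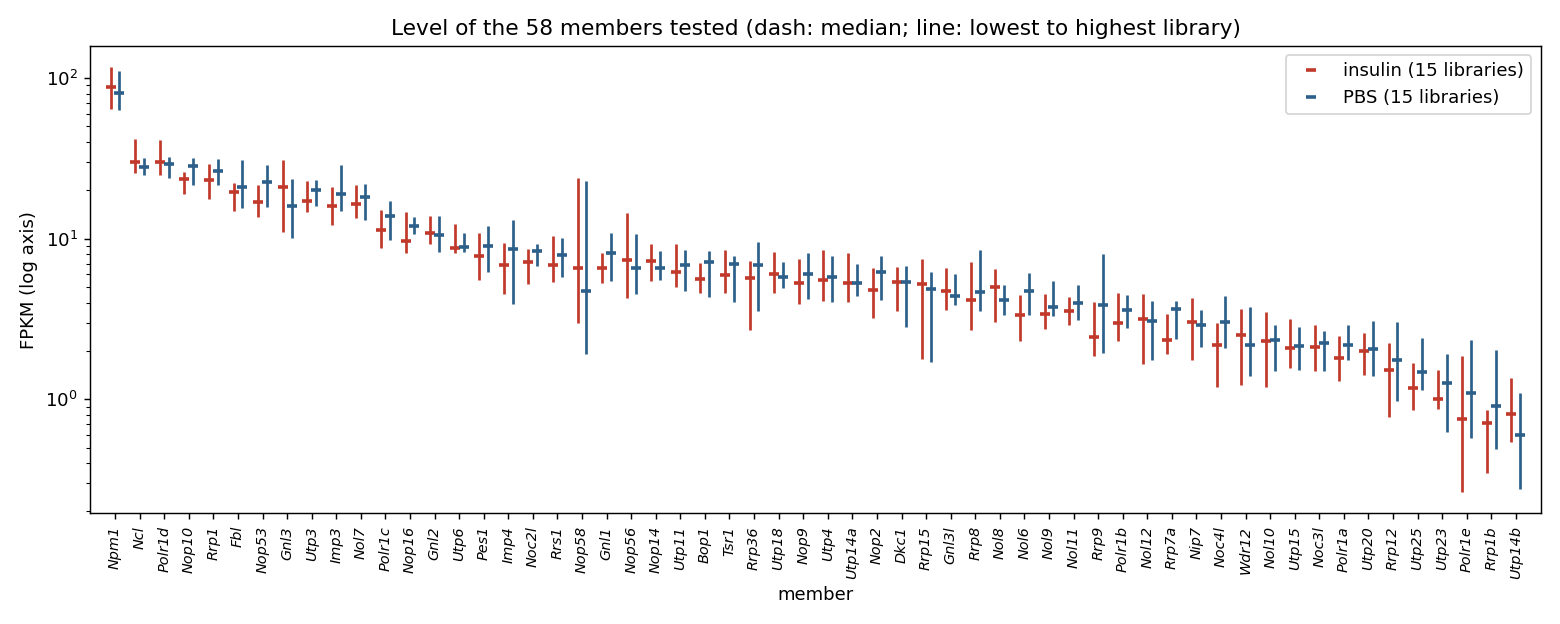
Level of the 58 members tested, ordered by mean FPKM on a log axis, with insulin left of PBS for each member. Dashes are medians over 15 libraries and lines run between the lowest and highest library. Npm1 stands above all others, and the insulin and PBS ranges overlap for every member.

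Levels spanned about 2 orders of magnitude. Npm1, a nucleolar chaperone of ribosome particles and histones, was highest at a mean of 84.8 FPKM over the 30 libraries, followed by Ncl, the nucleolin that binds precursor rRNA, at 29.7 FPKM and Polr1d, a subunit shared by RNA polymerases I and III, at 29.6 FPKM. The lowest tested members were Utp14b at 0.748 FPKM, Rrp1b at 0.853 FPKM and Polr1e at 1.07 FPKM. Rrp1b reached 1 FPKM in 7 PBS libraries and in no insulin library, so it was tested only because of its PBS level, and it is described below by its values and left out of counts where stated.

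**Figure D2:**
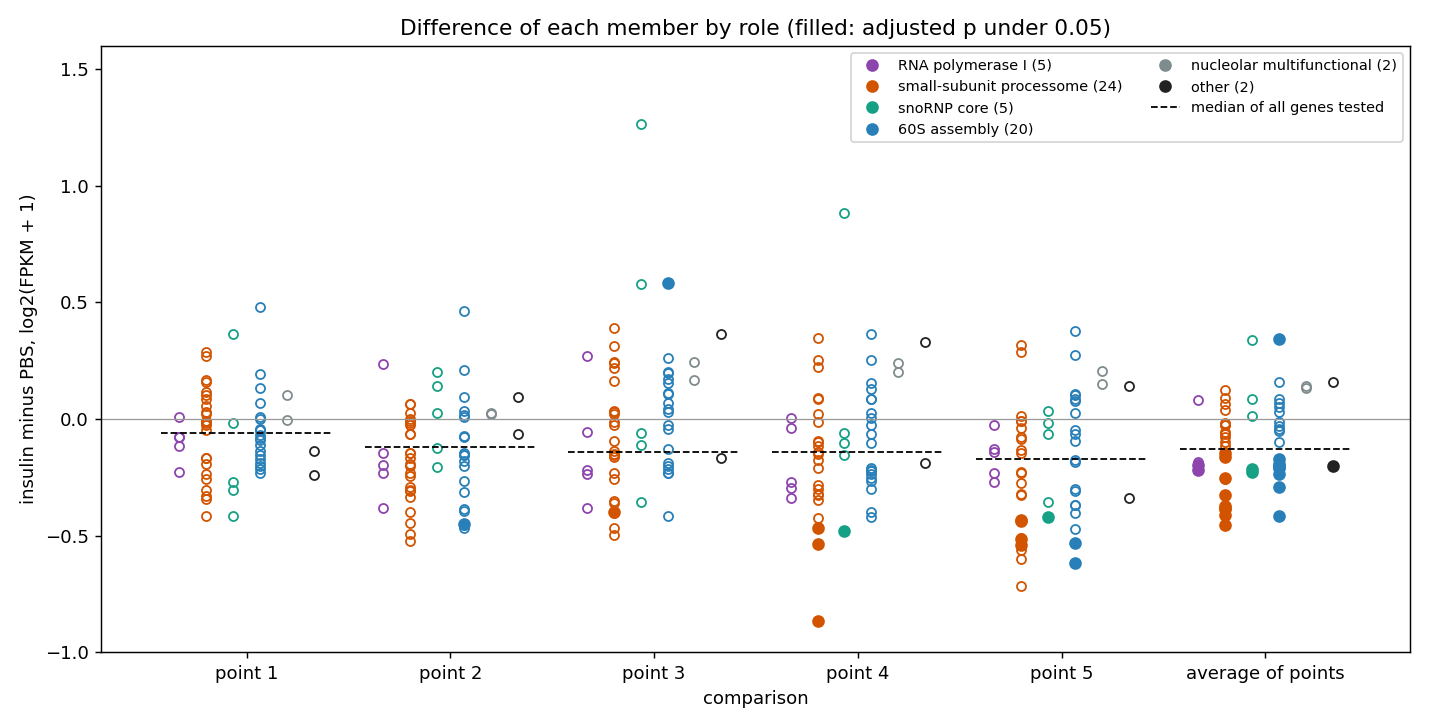
Difference between insulin and PBS (log2 of FPKM + 1) of each of the 58 members at each point and on average, coloured by role, with called members filled and the median of all genes tested as a dashed line. Called members lie mostly below 0, as does the dashed line, and the filled point above 0 at point 3 and on average is Gnl3.

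Gnl3 (nucleostemin, a GTPase of the nucleolus that acts in 60S assembly) was the member that rose. The gene lies on chromosome 14 at 31012433 to 31019152 (GRCm38, minus strand) and hosts small nucleolar RNA genes. It overlaps Pbrm1 on the other strand, and because the strand setting of the quantification is not given in the sources used here, reads of the overlap could belong to either gene. At point 3 it stood at 20.9, 26.2 and 30.9 FPKM in insulin livers, against 15.4, 17.1 and 18.1 FPKM in PBS livers. All insulin libraries lay above all PBS libraries. The difference was 0.58 ± 0.16 on the log2(FPKM + 1) scale (SE, n = 3 each; limma, adjusted p = 0.0236). It was the only member called higher at point 3, and 2.19% of all genes tested were. Utp3 (Sas10, of the small-subunit processome) was the only member called lower there, where 7.26% of all genes were. The Gnl3 call was lost, at the same sign, without insulin replicate 2 (adjusted p = 0.0696), insulin replicate 3 (0.104), PBS replicate 1 (0.0865) or PBS replicate 2 (0.0585). It stayed after GC adjustment, with a difference of 0.57 (adjusted p = 0.0181).

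At the other points the Gnl3 difference alone did not pass. Insulin libraries held 11.5, 11.0 and 11.7 FPKM at point 1, against 13.0, 10.1 and 13.1 FPKM in PBS libraries, and the groups overlapped. At point 2 insulin libraries held 19.1, 22.3 and 29.9 FPKM and PBS libraries 17.7, 15.2 and 17.2 FPKM. At point 4 the values were 24.8, 30.0 and 20.4 FPKM with insulin and 18.0, 23.6 and 16.2 FPKM with PBS. At point 5 they were 19.9, 20.0 and 21.4 FPKM with insulin and 15.5, 15.9 and 15.0 FPKM with PBS. At points 2 and 5 the groups did not overlap, and at point 4 they did. On average over the 5 points Gnl3 was higher in insulin livers by 0.34 ± 0.07 (SE, 15 libraries each; limma, adjusted p = 0.000406), a call that held under all 14 alternatives run for it. It was higher at 4 of the 5 points, and whether the difference depended on the point was not shown (interaction adjusted p = 0.498).

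**Figure D3:**
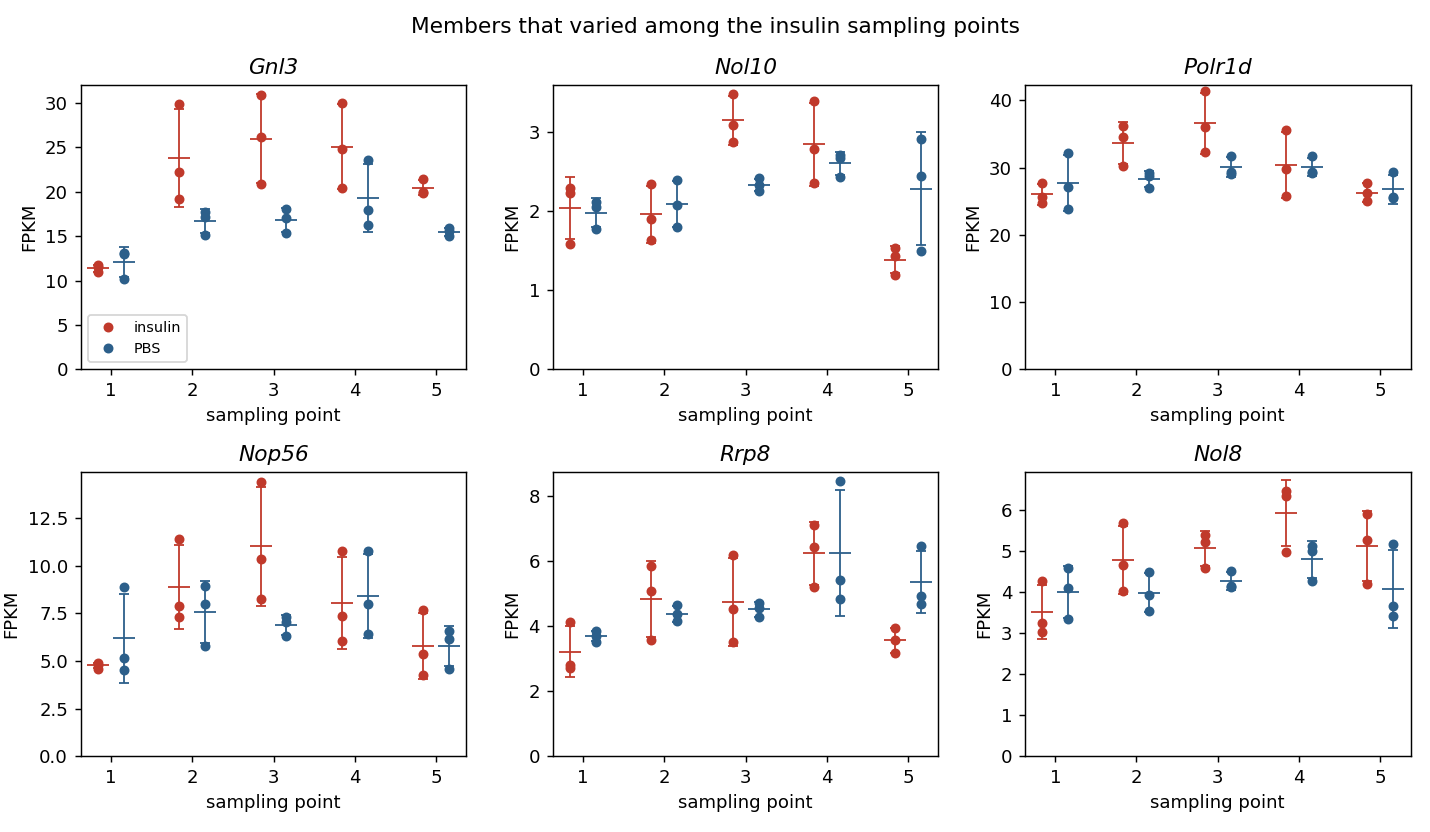
FPKM in every library at each point for the 6 members that varied among the insulin points, with insulin left of PBS and bars for mean and SD (n = 3). Gnl3 is near 11 FPKM with insulin at point 1 and between 19.1 and 30.9 FPKM at the other points, and Nol10 with insulin is highest at point 3 and lowest at point 5.

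Among the insulin livers alone, 6 of the 58 members varied over the 5 points (10.3%; 13.3% of all genes tested), a share near that of all genes. Among the PBS livers none passed, against 3.27% of all genes (limma F test). None passed the test of whether the insulin difference depended on the point, against 1.77% of all genes. These insulin patterns are therefore not shown to differ from those of the PBS livers. At an unadjusted p under 0.05 (limma F tests) stood 7 members among the PBS points and 4 for dependence on the point. The shares of all genes are at the adjusted threshold, so they are no match for these unadjusted counts. Without 1 series, the insulin count was 3 (insulin replicate 1), 2 (insulin replicate 2) or 3 (insulin replicate 3), and the PBS count 1 without PBS replicate 2. After GC adjustment the insulin count was 7, with Nop14 added, and the other counts stayed at 0. Shares of all genes are not given here for the fits without a series or with GC adjustment.

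Gnl3 led these 6 (F test among insulin points, limma, adjusted p = 6.89e-05). Nol10, the mammalian counterpart of yeast Enp2 in the small-subunit processome (adjusted p = 0.00159), held 1.59, 2.24 and 2.30 FPKM in insulin livers of point 1 and 1.64, 1.91 and 2.34 FPKM in those of point 2. It held 3.10, 3.48 and 2.88 FPKM with insulin at point 3, while point 4 gave 2.35, 3.40 and 2.79 FPKM and point 5 gave 1.54, 1.20 and 1.43 FPKM. Point 3 stood above points 1, 2 and 5 in every insulin library, and point 5 below all other points. At point 5 the Nol10 group means were 1.39 ± 0.17 FPKM with insulin and 2.29 ± 0.72 FPKM with PBS (SD, n = 3 each). The F test was lost without the insulin replicate 2 series (adjusted p = 0.108).

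Polr1d (adjusted p = 0.0138) held 24.8, 25.6 and 27.7 FPKM in insulin livers of point 1, 30.3, 36.2 and 34.5 FPKM in those of point 2 and 32.4, 41.4 and 36.0 FPKM in those of point 3. Insulin livers of point 4 held 25.8, 35.6 and 29.8 FPKM and those of point 5 26.2, 27.7 and 25.0 FPKM. Points 2 and 3 lay above points 1 and 5 in every insulin library. At point 3 the PBS libraries held 29.0, 29.4 and 31.8 FPKM, below all 3 insulin libraries. The difference at point 3 was 0.27 ± 0.12 (limma, adjusted p = 0.129) on the deposited values and 0.54 ± 0.12 (adjusted p = 0.00691) after GC adjustment. The F test was lost without the insulin replicate 2 or 3 series (adjusted p = 0.155 and 0.159).

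Nop56, a core protein of box C/D snoRNPs whose gene hosts several small nucleolar RNAs, had an adjusted p of 0.0180 among insulin points (limma). Insulin livers of point 1 held 4.89, 4.79 and 4.59 FPKM, those of point 2 held 7.89, 7.31 and 11.4 FPKM and those of point 3 held 10.4, 14.4 and 8.27 FPKM. Point 4 gave 6.02, 10.7 and 7.35 FPKM with insulin, and point 5 gave 4.28, 5.38 and 7.67 FPKM. All libraries of points 2, 3 and 4 lay above point 1. At point 3 the PBS libraries held 7.05, 7.28 and 6.32 FPKM, below the insulin libraries, and the difference of 0.58 ± 0.24 had an adjusted p of 0.119. The F test was lost without the insulin replicate 1 series (adjusted p = 0.125) or the replicate 2 series (0.168).

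Rrp8, a nucleolar methyltransferase that modifies 28S rRNA, had an adjusted p of 0.0211 among insulin points (limma). Its insulin group means were 3.22 ± 0.79, 4.84 ± 1.17, 4.74 ± 1.35, 6.25 ± 0.97 and 3.57 ± 0.38 FPKM at points 1 to 5, and the PBS means 3.69 ± 0.16, 4.39 ± 0.24, 4.52 ± 0.23, 6.24 ± 1.94 and 5.35 ± 0.96 FPKM (SD, n = 3 each). Both treatments were highest at point 4. Nol8, a nucleolar factor of precursor rRNA processing, had an adjusted p of 0.0403, and its insulin means were 3.51 ± 0.66, 4.79 ± 0.83, 5.07 ± 0.42, 5.93 ± 0.81 and 5.13 ± 0.86 FPKM (SD, n = 3 each). Its PBS libraries ranged over 3.34 to 5.17 FPKM. Without an insulin series, the Rrp8 test was lost for replicate 1 (adjusted p = 0.232) and replicate 3 (0.0737), and without the PBS replicate 3 series it stood at 0.0555. The Nol8 test was lost without any 1 of the 6 series (adjusted p = 0.0553 to 0.350).

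Over the 10 group means of log2 values, the members whose profile ran most like that of Gnl3 were Nol8 (Pearson r = 0.90), Utp18 (0.87), Nop14 (0.85), Nop56 (0.79), Ncl (0.75) and Polr1d (0.74). These r values are a description over 10 points that share libraries. Within groups, after the group means were removed, the 1653 pairs of members had a median r of 0.16, against 0.10 for pairs of all genes, and 74.8% and 64.6% of pairs were above 0. Ncl and Npm1 formed the most alike pair (r = 0.78). All pairs share libraries, depth and lane.

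Members whose insulin and PBS libraries did not overlap were counted at each point. At point 3 all insulin libraries lay above all PBS libraries for 11 of 58 members (19.0%), against 7.65% of all genes, and below them for 10 members (17.2%), against 27.8% of all genes. The 11 were Gnl3, Gnl3l, Ncl, Nol10, Nol8, Nop56, Polr1d, Tsr1, Utp14b, Utp4 and Wdr12. At points 1, 2, 4 and 5 the insulin libraries lay above for 2 members each (3.45%), against 2.99%, 4.86%, 8.01% and 6.42% of all genes. They lay below for 2 members at point 1 (3.45%; 6.44% of all genes), 10 at point 2 (17.2%; 18.6%), 12 at point 4 (20.7%; 24.3%) and 17 at point 5 (29.3%; 29.0%). The counts below at points 2 and 5 include Rrp1b, which was tested only because of its PBS level. The members' median difference at point 3 was −0.03, against −0.14 for all genes, and 36 of 58 lay above the median of all genes. After GC adjustment the members' median was 0.14, against 0.00 for all genes. These are descriptions with no test of the list. At the other points the medians of members and of all genes were −0.06 and −0.06 (point 1), −0.15 and −0.12 (point 2), −0.13 and −0.14 (point 4), and −0.16 and −0.17 (point 5).

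Point 1 gave no member call, where 0% of all genes were called higher and 0.00736% lower. An unadjusted p under 0.05 (limma) was reached by 2 of 58 members and 1078 of 13589 genes. At point 2, 12 of 58 members (1 of them higher) and 2422 of 13589 genes had an unadjusted p under 0.05 (limma). No member was called higher there (0.618% of all genes) and 1 was called lower (0.736% of all genes). It was Noc2l, the counterpart of yeast Noc2 in 60S assembly and an inhibitor of histone acetylation, at 5.24, 6.61 and 6.53 FPKM in insulin livers, against 8.75, 8.87 and 8.51 FPKM in PBS livers. The groups did not overlap, and the difference was −0.45 (limma, adjusted p = 0.0194). The call was lost without insulin replicate 1 (adjusted p = 0.144), PBS replicate 2 (0.0934) or PBS replicate 3 (0.0693), after median-ratio scaling (0.0640) and after GC adjustment (0.313).

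At point 3 Utp3 held 14.8, 15.2 and 16.9 FPKM in insulin livers, against 21.6, 21.1 and 20.1 FPKM in PBS livers, a difference of −0.40 (limma, adjusted p = 0.0412). The groups did not overlap. The call was lost without any 1 of the 6 libraries except insulin replicate 3 (adjusted p = 0.0784 to 0.125), after median-ratio scaling (0.197) and after GC adjustment (0.278). With median-ratio scaling 5 members were called higher at point 3 (4.89% of all genes) and none lower (3.83%): Gnl3, Polr1d, Nop14, Ncl and Nop56. With GC adjustment 2 were called higher (2.91% of all genes), Gnl3 and Polr1d, and none lower (1.68%).

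At point 4, 9 of 58 members (3 of them higher) and 4114 of 13589 genes had an unadjusted p under 0.05 (limma). No member was called higher there (2.82% of all genes) and 4 of 58, or 6.90%, were called lower (10.4% of all genes). Fbl, the fibrillarin that methylates rRNA in box C/D snoRNPs, held 21.5, 20.8 and 18.8 FPKM in insulin livers and 29.8, 25.7 and 31.0 FPKM in PBS livers, a difference of −0.48 (limma, adjusted p = 0.0399). Rrp7a, of the small-subunit processome, held 1.92, 2.41 and 3.40 FPKM in insulin livers and 4.02, 3.58 and 4.02 FPKM in PBS livers, a difference of −0.47 (adjusted p = 0.0396). In both genes the groups did not overlap. Nol6, the counterpart of yeast Utp22, held 2.61, 2.64 and 4.34 FPKM in insulin livers and 4.46, 4.73 and 5.81 FPKM in PBS livers, a difference of −0.54 (adjusted p = 0.0399). Rrp9, a U3-specific protein, held 1.87, 2.45 and 3.12 FPKM in insulin livers and 5.19, 4.83 and 5.88 FPKM in PBS livers, a difference of −0.87 (adjusted p = 0.0463). These groups did not overlap either. The calls of Rrp7a, Nol6 and Rrp9 were lost without any 1 library but insulin replicate 3, and that of Fbl without any 1 but PBS replicate 2 (adjusted p = 0.0518 to 0.213 over the losses).

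At point 5, 21 of 58 members (2 of them higher) and 4657 of 13589 genes had an unadjusted p under 0.05 (limma). No member was called higher there (2.96% of all genes) and 7 of 58, or 12.1%, were called lower (16.1% of all genes). The count was 6 of 57 (10.5%) without Rrp1b, whose place among the tested genes rests on its PBS level. Nop53, a 60S factor also known for its tie to p53 regulation, held 14.1, 18.0 and 15.4 FPKM in insulin livers and 23.0, 24.4 and 26.8 FPKM in PBS livers, a difference of −0.62 (limma, adjusted p = 0.0164). Rrp7a held 2.11, 2.35 and 2.45 FPKM in insulin livers and 3.85, 3.64 and 3.66 FPKM in PBS livers, a difference of −0.52 (adjusted p = 0.0183). Neither gene's groups overlapped. Nop10, of the box H/ACA snoRNPs that guide pseudouridylation, held 19.0, 21.4 and 21.7 FPKM in insulin livers and 28.8, 26.3 and 29.0 FPKM in PBS livers, a difference of −0.42 (adjusted p = 0.0202). Groups were again apart. Rrp1b held 0.851, 0.597 and 0.711 FPKM in insulin livers and 2.02, 1.41 and 1.09 FPKM in PBS livers, and no test is given for it. Utp25 held 0.856, 1.18 and 1.03 FPKM in insulin livers and 1.48, 2.12 and 1.61 FPKM in PBS livers, a difference of −0.43 (adjusted p = 0.0292). Nol6 held 2.72, 4.05 and 3.53 FPKM in insulin livers and 4.66, 5.43 and 6.15 FPKM in PBS livers, a difference of −0.54 (adjusted p = 0.0298). Both genes showed no overlap between groups, and Nol10, the last of the 7 (−0.44, adjusted p = 0.0335), did overlap.

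These point 5 calls leaned on single libraries. Without insulin replicate 1 all 6 besides Rrp1b were lost, with adjusted p-values of 0.0833 for Nop53, 0.0785 for Rrp7a, 0.0981 for Nop10, 0.126 for Utp25, 0.157 for Nol6 and 0.0625 for Nol10. Without PBS replicate 3 Nop53 (0.0698), Nop10 (0.0709), Utp25 (0.0581) and Nol6 (0.124) were lost, and without PBS replicate 2 Utp25 (0.129), Nol6 (0.0666) and Nol10 (0.101). Without PBS replicate 1 Nop10 (0.0521) and Nol10 (0.166) were lost. Nol10 (0.0981) was lost without insulin replicate 2, and Utp25 (0.0633), Nol6 (0.0574) and Nol10 (0.0647) without insulin replicate 3. Without the insulin replicate 1 libraries at every point, the counts of members called lower at points 2, 3, 4 and 5 were all 0. Shares of all genes under that setting are not given here.

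Scaling turned the balance of these calls. With median-ratio scaling 3 members were called higher (6.34% of all genes) and 1 lower (6.34%) at point 4, and 5 higher (8.09%) and 2 lower (8.71%) at point 5. The members called higher were Ncl, Utp15 and Gnl3 at point 4, and Nop14, Gnl3, Nol8, Tsr1 and Ncl at point 5. Nol6 remained lower at point 4, and Nop53 and Rrp7a at point 5. With GC adjustment none was called higher (3.93% of all genes) or lower (3.37%) at point 4, and at point 5 Nop14, of the small-subunit processome, was called higher (0.41, adjusted p = 0.0189; 4.13% of all genes) and none lower (3.45%).

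**Figure D4:**
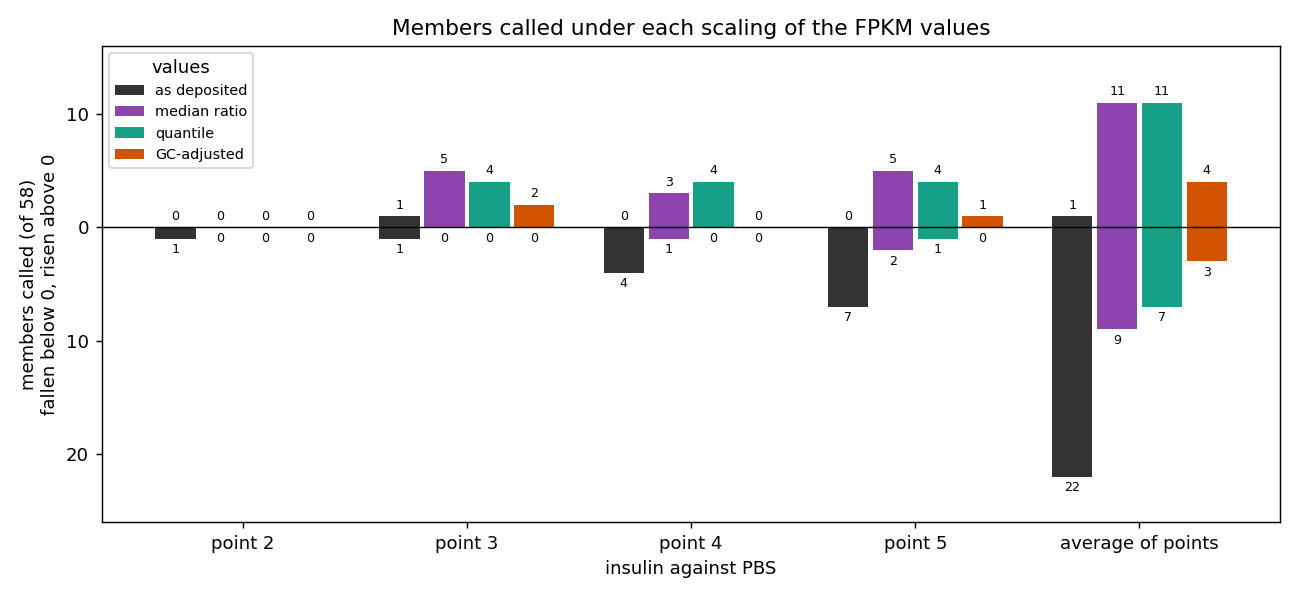
Members called higher (above 0) and lower (below 0) in insulin than in PBS livers at points 2 to 5 and on average, on the deposited FPKM and under 3 other scalings. Calls are mostly lower on the deposited values, where 22 of 58 fell on average (37.9%, against 37.6% of all genes). On average 11 were higher and 9 lower under median-ratio scaling (19.2% and 21.3% of all genes). After GC adjustment 4 were higher and 3 lower (12.9% and 11.7% of all genes). Shares of all genes under quantile normalization are not given here. The 22 and the 9 include Rrp1b.

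Averaged over the 5 points, 22 of 58 members were lower in insulin livers (37.9%), as were 37.6% of all genes, and 1 was higher (1.72%; 7.89% of all genes). Without Rrp1b 21 of 57 (36.8%) were lower. The share of members called lower was close to that of all genes. Libraries of the insulin replicate 1 series deviated together (r = 0.17 to 0.24 between points). With each treatment's replicate series as a random effect 14 were lower, and Fbl (adjusted p = 0.0531), Nop16 (0.0584), Utp3 (0.0514), Polr1a (0.0610), Nol9 (0.0694), Nol11 (0.0840), Nop2 (0.0893) and Rrp1 (0.0934) lost their calls. With median-ratio scaling the counts were 11 higher (19.2% of all genes) and 9 lower (21.3%). With GC adjustment they were 4 higher (12.9%) and 3 lower (11.7%). On the deposited values they were 7 higher and 13 lower without the insulin replicate 1 series, and 2 higher without the insulin replicate 2, PBS replicate 1 or PBS replicate 2 series. Rrp1b, tested only because of its PBS level, was among the 14, 9 and 13 lower, and not among the 3 lower after GC adjustment. Shares of all genes with the random effect or without a series are not given here, so those counts show nothing particular to the members. The median of all genes shifted from −0.13 as deposited to −0.02 with median-ratio scaling and 0.00 with GC adjustment.

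By role, 9 of 24 members of the small-subunit processome and 8 of 20 of 60S assembly (Rrp1b among them) were lower on average. So were 2 of 5 polymerase subunits, 2 of 5 snoRNP core proteins and 1 of 2 tested members of other roles (Gnl1), against 37.6% of all genes. Neither of the multifunctional pair Ncl and Npm1 was. Most of these shares lay near that of all genes, and no difference between roles was tested. Rrp7a ranged over 1.92 to 3.40 FPKM with a median of 2.35 in insulin livers, against 2.39 to 4.11 FPKM with a median of 3.64 in PBS livers, a difference of −0.38 ± 0.07 (limma, adjusted p = 8.11e-05). Nop53 ranged over 13.6 to 21.7 FPKM with a median of 16.9 in insulin livers, against 15.9 to 28.9 FPKM with a median of 22.5 in PBS livers, a difference of −0.42 ± 0.08 (adjusted p = 0.000178). Over 15 libraries each, the ranges overlapped in both genes. Nol6 had medians of 3.35 FPKM with insulin and 4.73 FPKM with PBS (difference −0.38, adjusted p = 0.000350), Noc2l 7.13 and 8.42 FPKM (−0.21, 0.000604), and Imp3, a U3 snoRNP protein, 16.1 and 19.1 FPKM (−0.33, 0.00123). Nop10 had medians of 23.5 FPKM with insulin and 28.2 FPKM with PBS (−0.23, 0.00168). Leaving Rrp1b out, the other members called lower were Utp25, Rrp36, Noc4l, Bop1, Rrp9, Polr1b, Fbl, Gnl1, Nop16, Utp3, Polr1a, Nol9, Nol11, Nop2 and Rrp1. Their differences were −0.45 (Rrp9) to −0.14 (Nol11). Of the first 6, Nop53 alone kept its call under all 14 alternatives, and with GC adjustment it stood at −0.25 (adjusted p = 0.00347) and Nop10 at −0.19 (0.0151), while the calls of Rrp7a (adjusted p = 0.0860), Nol6 (0.311), Noc2l (0.207) and Imp3 (0.631) were lost. Nop10 was not called after median-ratio scaling (−0.09, adjusted p = 0.179) or quantile normalization (−0.11, 0.103), and neither was Noc2l (adjusted p = 0.104 and 0.115). The remaining member called lower after GC adjustment was Nol11, of the processome (−0.15, adjusted p = 0.0236), which stood at −0.03 (0.715) after median-ratio scaling, and those called higher were Polr1d, Gnl3, Nop14 (0.21, 0.00230) and Rrs1, of 60S assembly (0.20, 0.0299).

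**Figure D5:**
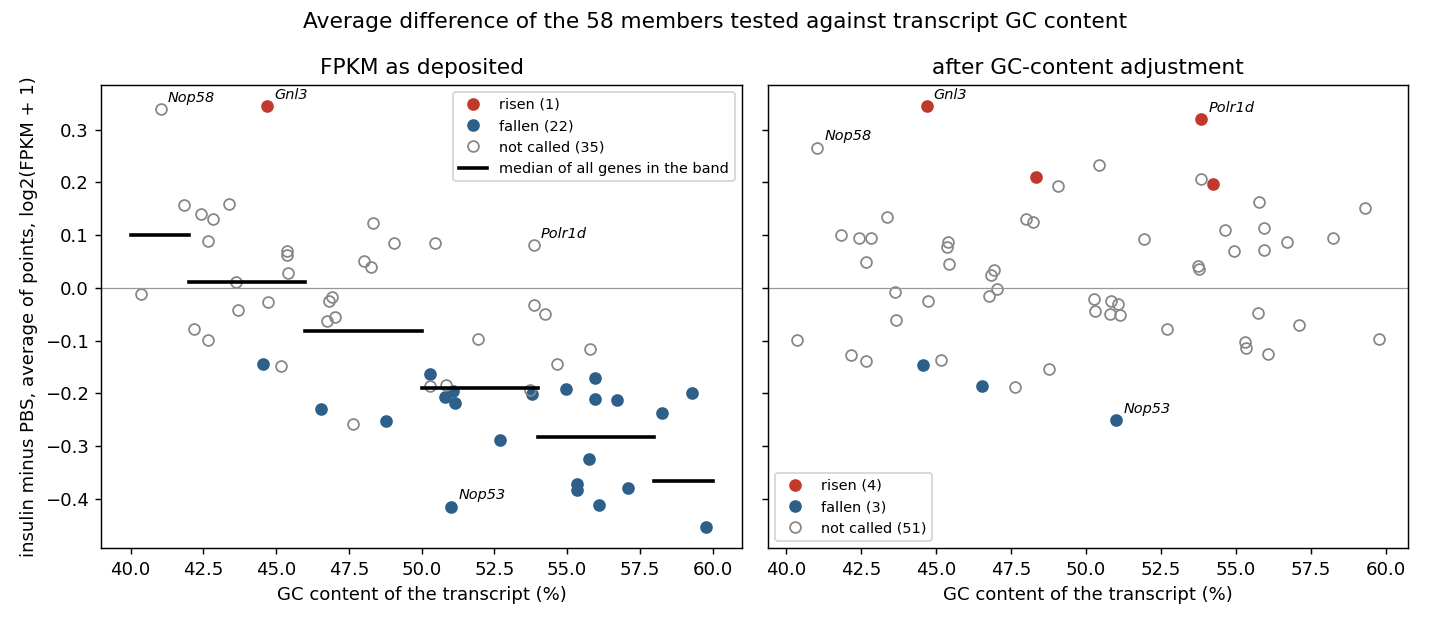
Average difference between insulin and PBS (log2 of FPKM + 1) of the 58 members against the GC content of their transcripts, on the deposited values (left) and after GC adjustment (right), with black lines at the median of all genes per GC band. On the left, differences run lower at higher GC in members and in all genes. On the right, where the adjustment removes the slope over all genes by its design, 7 members are called.

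GC content moved with the average difference. Across the 58 members the difference had a Pearson r of −0.68 and a Spearman rho of −0.69 with transcript GC content, and across all genes −0.52 and −0.60, as descriptions over genes that share the same libraries. The 22 lower members (Rrp1b among them) had a median GC content of 55.1%, the 35 without a call 46.8%, and Gnl3 44.7%. Among all genes the median difference was 0.10 at up to 42% GC and −0.37 above 58%. Transcript length had a rho of 0.11 over the members. The part of GC content in the differences was not tested beyond the adjustment.

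Among the polymerase subunits, Polr1a, the largest catalytic subunit, had medians of 1.80 FPKM in insulin livers and 2.18 FPKM in PBS livers, an average difference of −0.20 (limma, adjusted p = 0.0196). Polr1b, the second largest, had 3.00 and 3.61 FPKM (−0.22, adjusted p = 0.0117). Both were called lower on the deposited values, and neither was after median-ratio scaling or GC adjustment (adjusted p = 0.204 and 0.747 for Polr1a, 0.175 and 0.582 for Polr1b). Without 1 series, the Polr1a call was lost for insulin replicate 1 (adjusted p = 0.0825), PBS replicate 1 (0.0645) and PBS replicate 2 (0.131), and the Polr1b call for insulin replicate 1 (0.126) and PBS replicate 3 (0.0509). Polr1c, shared with polymerase III, had 11.3 FPKM with insulin and 13.8 FPKM with PBS (−0.19, adjusted p = 0.0625), and Polr1e 0.751 and 1.09 FPKM (−0.18, 0.205). Polr1d had 29.8 FPKM with insulin and 29.2 FPKM with PBS (0.08, 0.202), and it was called higher after median-ratio scaling (0.23, adjusted p = 0.000543) and GC adjustment (0.32, 0.000111).

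Ncl had medians of 29.9 FPKM in insulin livers and 28.0 FPKM in PBS livers, and an average difference of 0.13 (limma, adjusted p = 0.0502). Npm1 had 87.6 FPKM with insulin and 81.2 FPKM with PBS (0.14, adjusted p = 0.182). Both were called higher after median-ratio scaling (0.28 and 0.29) and neither after GC adjustment (0.10 each). Fbl had 19.6 FPKM with insulin and 21.1 FPKM with PBS (−0.21, adjusted p = 0.0136), and after GC adjustment its difference was 0.09 (adjusted p = 0.380). The Fbl call was also lost without the insulin replicate 3 (adjusted p = 0.0757) or PBS replicate 3 series (0.0605). Nop58, the partner of Nop56, ranged over 2.98 to 24.0 FPKM in insulin livers and 1.92 to 23.0 FPKM in PBS livers, and its SE of 0.60 at a single point was the largest among the members.

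Other genes of the pathway, from lists of factors outside the symbol rule, were counted in the same way. On average over points, 0 of 16 other polymerase I subunits and initiation factors were called higher and 7 lower. Of 38 other small-subunit factors 3 were higher and 10 lower, and of 46 other 60S factors 3 and 14. Of 14 other snoRNP and modification factors 0 were higher and 6 lower, and of 14 genes of an exosome list 1 and 5. That list includes Mpp6, a symbol that need not stand for an exosome gene in the mouse. Of 22 polymerase III genes 1 was higher and 11 lower. Of 28 genes of the Myc network and mTORC1 control the counts were 5 and 13, and of 10 genes of ribosomal stress and p53 1 and 3. On the deposited values 7.89% of all genes were higher and 37.6% lower. Under median-ratio scaling, where 19.2% of all genes were higher and 21.3% lower, the small-subunit list had 7 higher and 4 lower and the 60S list 13 higher and 9 lower. After GC adjustment, where 12.9% of all genes were higher and 11.7% lower, the small-subunit list had 4 higher and 4 lower and the 60S list 6 higher and 3 lower.

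Myc held 2.65, 4.96 and 2.11 FPKM in insulin livers at point 2, against 0.904, 1.27 and 0.886 FPKM in PBS livers, a difference of 1.02 ± 0.24 (limma, adjusted p = 0.0260). At point 4 it held 6.81, 6.70 and 4.37 FPKM in insulin livers, against 1.68, 2.29 and 1.95 FPKM in PBS livers, a difference of 1.21 ± 0.24 (adjusted p = 0.00236). At both points the groups did not overlap, and both calls held after median-ratio scaling and GC adjustment. At point 3 Myc stood at 1.75, 0.783 and 1.05 FPKM in insulin livers and 1.42, 1.83 and 1.66 FPKM in PBS livers (−0.29, adjusted p = 0.455). Without 1 library the point 2 call was lost for insulin replicate 2 (adjusted p = 0.207), PBS replicate 2 (0.0563) and PBS replicate 3 (0.129), and the point 4 call was kept under all 15 alternatives.

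Ubtf, the upstream binding factor of polymerase I, was lower at point 5, with 5.79, 10.9 and 6.43 FPKM in insulin livers and 9.24, 13.4 and 15.6 FPKM in PBS livers, which overlapped (−0.68 ± 0.18; limma, adjusted p = 0.0123). The point 5 call of Ubtf was lost without insulin replicate 1 (adjusted p = 0.0913), insulin replicate 3 (0.0554) or PBS replicate 3 (0.0821), and after GC adjustment (0.179). On average over points Ubtf was also called lower (−0.31; limma, adjusted p = 0.00335). That call was kept under 13 of 14 alternatives and lost after GC adjustment (−0.06, adjusted p = 0.529). Rrn3, the initiation factor that couples the polymerase to its promoter, was not called at any point, with differences of −0.29, 0.14, 0.28, 0.08 and 0.04 in the order of the points. After median-ratio scaling it was called higher at point 3 (0.42, adjusted p = 0.0418). Taf1b, of the selectivity factor SL1, was called at no single point and was lower on average by 0.25 log2 units (−0.25 ± 0.07; limma, adjusted p = 0.00602). The Taf1b call was kept after GC adjustment (−0.23, adjusted p = 0.0140) and lost after median-ratio scaling (−0.16, 0.0644).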

How the data were processed

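The submitters' processing notes name HISAT2 2.1.0, SAMtools 1.9, StringTie 2.0.3 and GRCm38 (mm10). Which annotation and strand setting were used is not given in those sources. The authors deposited FPKM per gene for 30 libraries, so no count test was run. Cells without a value were set to 0, which touched no tested member. Titles gave treatment, sampling point and replicate. The labels do not tie each library to its own animal, so p-values describe sample spread, which may be technical. Depth, estimated from steps between low values, was 19.9 to 40.5 M reads (medians 30.6 M insulin, 31.9 M PBS). The steps gave whole reads within 0.05 for only 37.8% to 44.9% of values, so no reads were recovered.

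The 13589 genes that reached 1 FPKM in 3 libraries were fitted as log2(FPKM + 1) in limma 3.58.1 (R 4.3.3), using 10 group means and a trended variance on 20 degrees of freedom. Fold changes on this scale understate low genes. P-values were two-sided and adjusted over all 13589 genes (Benjamini-Hochberg, threshold 0.05). The members and lists were chosen with earlier results of these data known. Named were the members that passed each comparison (at most 6 per direction), the polymerase subunits, Ncl, Npm1 and Fbl, the highest and lowest members, and Myc, Ubtf, Rrn3 and Taf1b. Nop58, Nop14 and genes called under other scalings were named with their values seen. Positions came from GENCODE M21, promoters from RefSeq GRCm38.p6. GC adjustment subtracted from each library a lowess curve (span 0.3) of its deviations from the gene means on transcript GC content, known for 13580 genes. This step also takes away any true difference between treatments that runs with GC content.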

Additional observations from a re-analysis of the deposited data

Results flagged for a closer look

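Nop9 and Utp4, both of the small-subunit processome, had insulin libraries wholly on one side of the PBS libraries at one point and wholly on the other side at another point. Nop9 held 6.44, 7.44 and 6.64 FPKM in insulin livers and 4.24, 5.91 and 6.27 FPKM in PBS livers at point 1, against 5.10, 4.93 and 4.38 FPKM in insulin livers and 6.05, 7.19 and 5.75 FPKM in PBS livers at point 2. Utp4 held 8.09, 7.80 and 7.09 FPKM in insulin livers and 5.94, 6.11 and 4.85 FPKM in PBS livers at point 3, against 4.83, 4.96 and 4.76 FPKM in insulin livers and 7.76, 5.73 and 7.62 FPKM in PBS livers at point 2. The test of whether the insulin difference depends on the point was not passed by either (limma F test, adjusted p = 0.495 for Nop9 and 0.388 for Utp4).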

How the results depend on the processing

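Of the member counts recomputed under the alternatives, 152 stayed within 1.5 times the reported one and 81 did not. Shares of all genes are given above only for median-ratio scaling and GC adjustment. The other counts show nothing particular to the members. Counts lower include Rrp1b wherever it was called, although it was tested only because of its PBS level. Leaving out 1 library or series at a time gave 0 to 1 member lower at point 2, 0 to 1 higher and 0 to 1 lower at point 3, 0 to 1 higher and 0 to 4 lower at point 4, 0 to 5 lower at point 5, 1 to 7 higher and 13 to 23 lower on average, 2 to 5 varying among insulin points and 0 to 1 among PBS points. Over 5 FPKM on average, 1 was lower at point 4, 3 at point 5, 2 higher and 12 lower on average, 3 varied among insulin and 1 among PBS points. A pseudocount of 0.1 gave 2 higher on average, and no filter gave 0 lower at points 3 and 4. Under median-ratio scaling the count lower at point 2 was 0. Point 3 then had 5 higher and 0 lower, point 4 had 3 higher with 1 lower, point 5 had 5 higher with 2 lower, and the average 11 higher with 9 lower. Quantile normalization gave 0 lower for point 2, 4 higher with 0 lower for each of points 3 and 4, 4 higher with 1 lower for point 5, and 11 higher with 7 lower on average. GC adjustment gave 0 lower for point 2, 2 higher with 0 lower for point 3, 0 lower for point 4, 1 higher with 0 lower for point 5, and 4 higher with 3 lower on average. The 6 libraries of a point alone gave 0 lower for point 2, 0 in either direction for point 3, 0 lower for point 4 and 2 lower for point 5. Series as a random effect (correlation 0.11) gave 14 lower on average and 2 varying among PBS points. Insulin and PBS libraries of the same number and point did not deviate together (correlations −0.11 to 0.12), so no pairing of the treatments by number was seen. Within a treatment a number can mark a series. Among PBS libraries it was the lane, and the insulin replicate 1 libraries did deviate together (r = 0.17 to 0.24). The replicate block gave 2 lower at point 2, 4 at point 3 and 3 higher on average. The replicate block within treatment gave 1 varying among PBS points. Under GC adjustment the average differences of Noc2l (0.0715), Bop1 (0.0952), Fbl (0.0868), Gnl1 (0.15), Nol9 (0.0356), Nop2 (0.0694), Rrp1 (0.11) and Polr1c (0.0418) changed sign, none of them called. Of 49 called results for single genes, 5 kept their call under all alternatives run, namely Gnl3 on average and among insulin points, Nop53 on average, and Myc at point 4 and on average. The causes were not tested. Low members such as Utp14b, near 1 FPKM, limit what could be seen.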
